A study of Mus musculus with 43 samples.

Results

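The arterial and venous identity genes described here are 10 rows of a count table of 54532 genes, taken by their symbols. The arterial genes are Bmx, Efnb2, Sema3g, Vegfc, Gja4, Gja5 and Gkn3, and the venous genes are Nr2f2, Ephb4 and Lcn2. All 10 symbols were found, and all 10 passed the filter on low values (a level of 0.5 CPM, that is counts-per-million of the library, reached in any library), which left 29120 genes. RNA was sequenced from endothelial cells (EC) of the brain, sorted as CD31+, CD45- and CD11b- cells from mice aged 2 months. Of the 43 libraries, 21 came from cortex and 22 from hippocampus. They came from 16 female and 27 male samples of 7 inbred strains. The long-inbred strains were 129S1/SvImJ (9 libraries), A/J (5), C57BL/6J (6), DBA/2J (5) and NOD/ShiLtJ (6), and the recently wild-derived strains were CAST/EiJ (6) and WSB/EiJ (6). The word high or low stands in each title without an explanation: 15 female and 14 male libraries are titled high, and 1 female and 13 male libraries are titled low. No treatment or altered allele is given for any group.

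The sort took EC of the whole vascular tree, so arterial, capillary and venous EC were sequenced together. The labels do not give the mouse, and a cortex and a hippocampus library may come from 1 animal. Each library was treated as a sample, and p-values measure the spread between libraries.

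Arteries and veins of the brain are lined by EC of different identity, with capillary EC between them. In arterial EC, Notch signalling keeps the arterial programme on, and the membrane ligand ephrin-B2, made from Efnb2, marks these cells from early development. Its receptor EphB4, made from Ephb4, is enriched in veins, where the nuclear receptor COUP-TFII, made from Nr2f2, holds Notch signalling down. In bulk RNA of sorted cells, fewer cells of a type and less RNA per cell cannot be told apart.

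The sequences before the start sites of Efnb2 and Bmx are shown because these genes gave the only differences called among the 10 in the main fits with edgeR. Sema3g was also called among strains by DESeq2, and its window is not shown. The sequences are RefSeq promoter windows of 300 bases (250 before to 50 after the start, build GRCm38.p6), written 5′ to 3′ on the strand of the gene. The Efnb2 window lies on the minus strand at chr8:8661193-8661492 and has a GC content of 72.3%, against a median of 52.7% over 32851 mouse promoter windows. Capitals mark TTTATA, a match to the letters TATAAA on the opposite strand, which begins 30 bases before the start. The Bmx window lies on the minus strand at chrX:164258144-164258443 and has a GC content of 44.7%. Its capitals mark the letters TGGGAA, the core bound by RBPJ, the DNA-binding partner of Notch.
Efnb2: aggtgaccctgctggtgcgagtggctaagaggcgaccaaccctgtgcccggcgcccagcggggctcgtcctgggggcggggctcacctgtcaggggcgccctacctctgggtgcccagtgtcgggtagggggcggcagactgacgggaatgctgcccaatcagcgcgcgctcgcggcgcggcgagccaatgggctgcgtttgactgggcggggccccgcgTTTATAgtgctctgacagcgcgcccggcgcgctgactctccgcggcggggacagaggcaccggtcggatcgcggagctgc
Bmx: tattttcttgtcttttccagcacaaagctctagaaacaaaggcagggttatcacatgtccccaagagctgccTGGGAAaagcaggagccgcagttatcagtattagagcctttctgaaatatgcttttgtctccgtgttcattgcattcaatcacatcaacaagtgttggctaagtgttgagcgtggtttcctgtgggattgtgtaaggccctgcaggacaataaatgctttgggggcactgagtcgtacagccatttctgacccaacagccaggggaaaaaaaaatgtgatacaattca

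Each set of letters was searched on both strands of all windows. TGGGAA was present in 25.6% of the 32851 windows and in those of 2 of the 10 genes, Bmx and Sema3g. TATAAA was present in 13.6% of all windows and, among the 10, in that of Efnb2. AACAAT (the core of SOX factors), CCGGAA (ETS factors), AGGTCA (nuclear receptors) and the NF-kB motif were present in 10.7%, 14.9%, 16.3% and 4.51% of all windows and in none of the 10. These are matches of letters and not sites of binding.

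Library totals ranged from 1626534 to 49372356 counts, with a median of 5790701. The totals were lowest in WSB/EiJ (1626534 to 5331064), so that the floor of 3 counts stood between 0.603 and 1.84 CPM in the libraries of that strain and at 0.0537 CPM in the deepest library. Male libraries were shallower than female libraries (median 5257353 against 21242058 counts), and rRNA-like genes took 13.0% to 29.3% of male and 1.59% to 12.1% of female counts. Sex and these measures of library preparation cannot be told apart. Of 20 endothelial markers, all were detected. Their summed level was 12500 to 24600 CPM, against 362 to 1010 CPM for 10 smooth muscle, 1950 to 9550 CPM for 10 pericyte and 1100 to 19700 CPM for 10 astrocyte markers.

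Compared per exonic kilobase, Ephb4 was the most abundant of the 10, with a mean of 54.5 CPM per kb over the 43 libraries. It was followed by Sema3g (28.3), Efnb2 (15.8), Nr2f2 (10.1), Gja4 (9.88), Gkn3 (7.01), Bmx (6.86), Vegfc (4.71), Lcn2 (0.966) and Gja5 (0.274 CPM per kb). The coefficient of variation over libraries was 38.3% for Ephb4, 38.9% for Nr2f2, 41.4% for Sema3g and 45.8% for Efnb2. These 4 genes lay above 3 counts in every library. The spread was wider for Bmx (72.5%), Gja4 (84.0%), Vegfc (94.2%), Gkn3 (119%), Gja5 (147%) and Lcn2 (210%). Lcn2 was at or under 3 counts in 29 of 43 libraries, Gja5 in 24, Gkn3 in 13, Vegfc in 12, Bmx in 3 and Gja4 in 1.

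**Figure D1:**
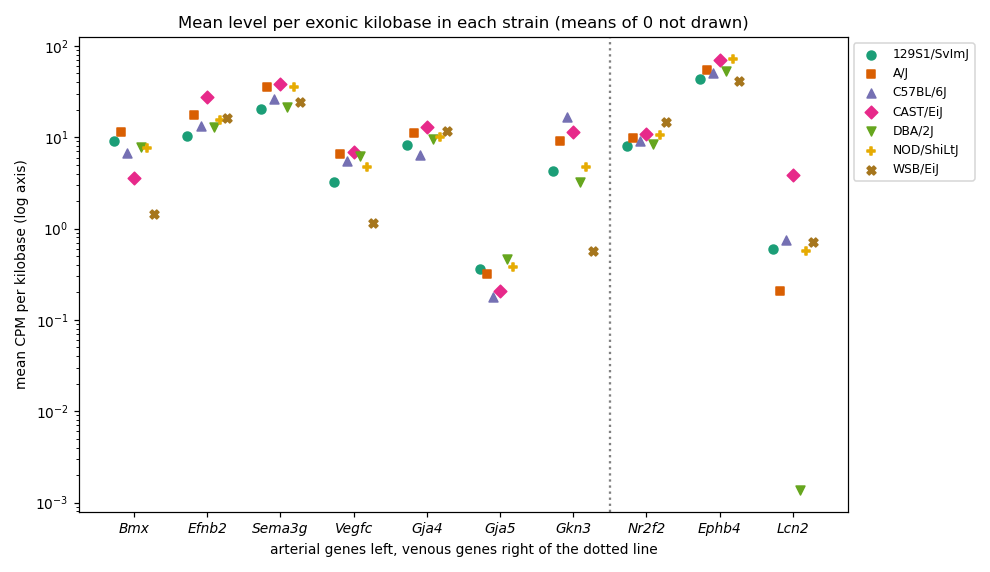
Mean level of each gene per exonic kilobase (log axis) in each of the 7 strains, arterial genes left and venous genes right. Ephb4 (54.5 CPM per kb over all libraries) and Sema3g (28.3) lay at the top and Gja5 (0.274) and Lcn2 (0.966) at the bottom. The WSB/EiJ mean of Gja5 is 0 and is not drawn.

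The first comparison asked whether the level of each gene differed among the 7 strains. With edgeR's quasi-likelihood test over all libraries and 29120 genes, 1 of the 10 genes, Efnb2, differed among strains (adjusted p = 0.0360). On simulated data, false calls made up 30.6% of this test's calls at 4-fold changes and 24.2% at 8-fold changes. Both shares lie above the threshold of 0.05, so the adjusted p understates the error. Over all genes tested 2.68% were called. At an unadjusted p under 0.05, 4 of the 10 stood out (Efnb2, Bmx, Sema3g and Ephb4), against 10.7% of all genes. DESeq2 called 3 of the 10, namely Efnb2, Bmx and Sema3g. In every gene, none of the 6 pairs of strains next to each other in the order of means was called by edgeR's test.

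Efnb2 (chr8:8617434-8661242, minus strand, mm10) was highest in CAST/EiJ. Its 6 libraries held 124, 167, 187.1, 198.6, 220.5 and 225.5 CPM, a mean of 187 ± 37.7 CPM (SD, n = 6). The 9 libraries of 129S1/SvImJ ranged from 17.55 to 151.7 CPM with a median of 78.97, a mean of 71.7 ± 40.3 CPM (SD, n = 9). These ranges overlapped: 1 male hippocampal library of 129S1/SvImJ, at 151.7 CPM, lay above the lowest CAST/EiJ library.

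The other strain means of Efnb2 were 119 ± 43.2 CPM in A/J (SD, n = 5), 112 ± 45.7 in WSB/EiJ (n = 6), 107 ± 37.0 in NOD/ShiLtJ (n = 6), 90.0 ± 17.3 in C57BL/6J (n = 6) and 88.3 ± 26.9 in DBA/2J (n = 5). In all strains other than CAST/EiJ, 8 of 37 libraries reached the lowest CAST/EiJ library. Each pair of strains was adjusted on its own over all genes, with no adjustment over the 21 pairs. Of the 21 pairs of strains, Efnb2 was called in 1, with 129S1/SvImJ below CAST/EiJ by a log2 fold change of -1.39 (SE 0.29, adjusted p = 0.00244 by edgeR's quasi-likelihood test). Of these libraries, 6 of 9 of 129S1/SvImJ and 2 of 6 of CAST/EiJ were female. The median rRNA-like share of counts was 2.59% in 129S1/SvImJ and 19.7% in CAST/EiJ, and the median total was 30897300 against 7524210 counts, and the part of these measures in the difference was not tested beyond the alternatives given here. Among male libraries the mean of Efnb2 was 103 ± 48.2 CPM in 129S1/SvImJ (SD, n = 3), above C57BL/6J (87.7), DBA/2J (88.4) and NOD/ShiLtJ (87.4), and 184 ± 48.1 CPM in CAST/EiJ (n = 4). The lowest place of 129S1/SvImJ was seen with its female libraries included and not in males. In that pair of strains 0.999% of all genes were called, and over the 21 pairs 0.0893% to 1.22% were.

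The call of Efnb2 among the 7 strains rested on single libraries. It was lost when any 1 of 12 libraries was left out, with an adjusted p of 0.0519 to 0.126 by edgeR's test. These were C57BL/6J replicate 1, A/J replicate 1, CAST/EiJ replicates 1, 2, 3, 5 and 6, and 129S1/SvImJ replicates 2, 3, 4, 5 and 8. It was also lost among male libraries (0.36), within cortex (0.58) and within hippocampus (0.922), and with DESeq2's size factors (0.0652) in place of edgeR's scaling. With the rRNA-like share as a covariate the adjusted p was 0.22, and with the smooth muscle mean 0.122. The difference between 129S1/SvImJ and CAST/EiJ stayed called with any 1 of the 43 libraries left out (log2 fold change -1.60 to -1.26), and was not called among male libraries (-0.81, SE 0.36, adjusted p = 0.929 by edgeR's test), within cortex (-1.46, adjusted p = 0.0949) or within hippocampus (-1.29, adjusted p = 0.644). Efnb2 also overlaps 3 genes annotated on the same strand, with which it shares no exonic base.

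**Figure D2:**
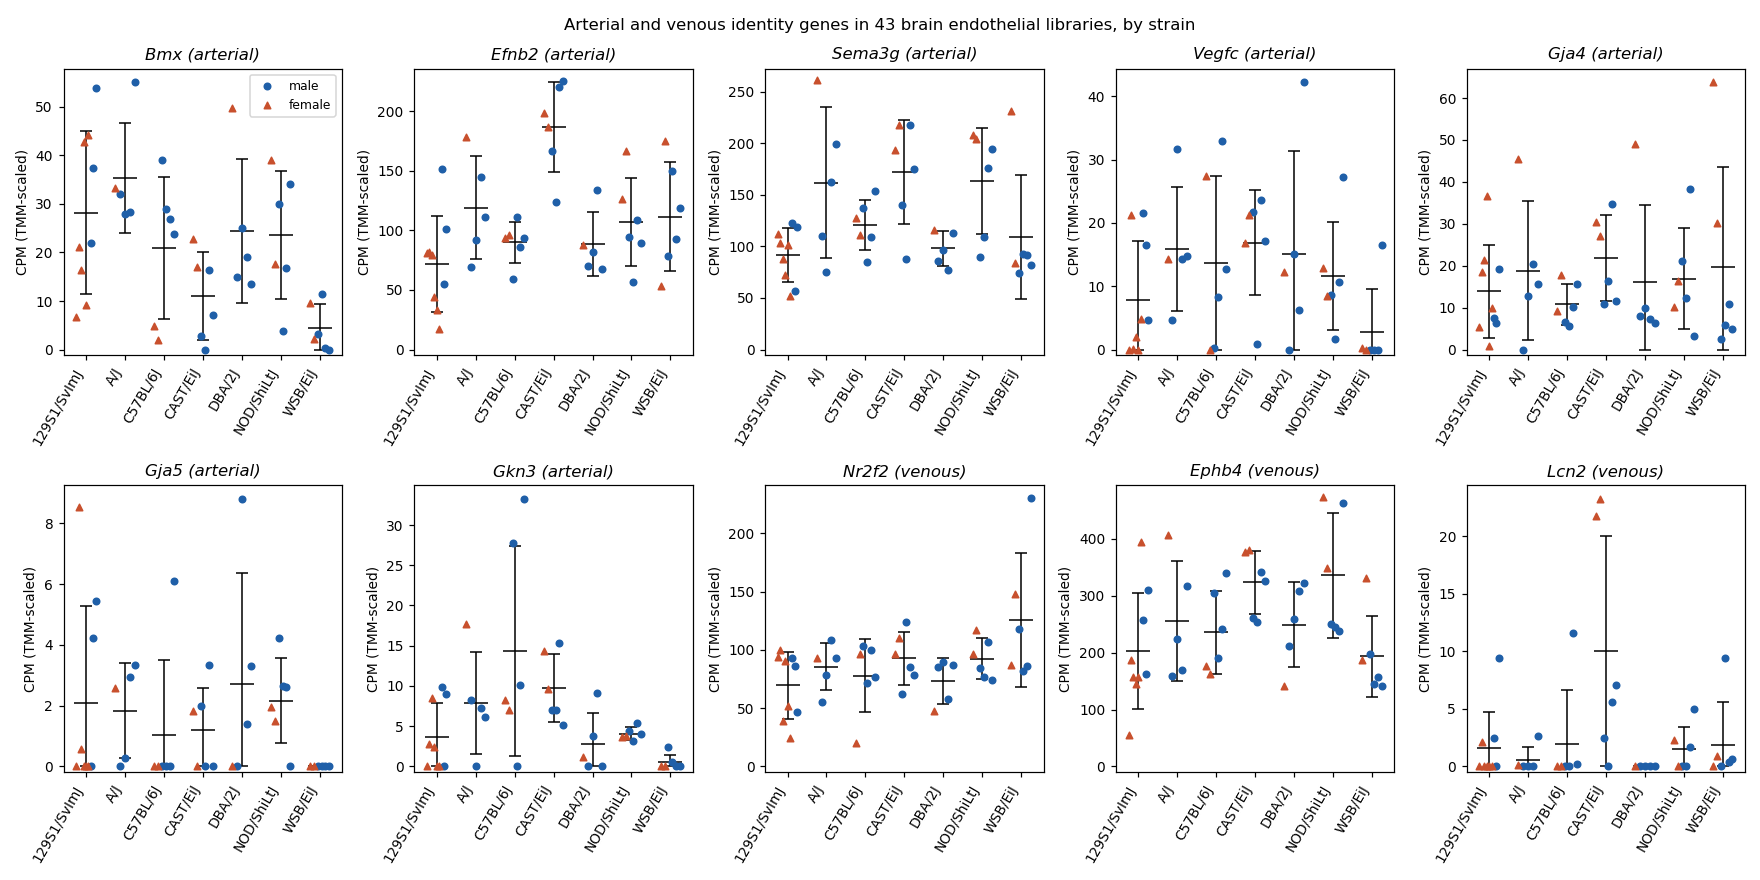
CPM of each of the 10 genes in every library, by strain, with male libraries as circles, female libraries as triangles, and the mean and SD as a bar with whiskers (cut at 0). The CAST/EiJ libraries of Efnb2 lie between 124 and 225.5 CPM, Bmx stays at or below 11.53 CPM in WSB/EiJ, and Gja5 is at 0 counts in all 6 WSB/EiJ libraries.

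Bmx (chrX:164192842-164258193, minus strand, mm10) encodes a Tec-family kinase of arterial endothelium and the endocardium. It was lowest in WSB/EiJ, where the 6 libraries held 0, 0.4031, 2.162, 3.217, 9.503 and 11.53 CPM. In CAST/EiJ the 6 libraries held 0, 2.742, 7.166, 16.47, 17.01 and 22.77 CPM. In A/J all 5 libraries lay between 27.96 and 55.14 CPM, above every library of both wild-derived strains.

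The mean of Bmx was 4.47 ± 4.87 CPM in WSB/EiJ (SD, n = 6), 11.03 ± 9.04 in CAST/EiJ (n = 6), 20.9 ± 14.6 in C57BL/6J (n = 6), 23.6 ± 13.1 in NOD/ShiLtJ (n = 6), 24.5 ± 14.8 in DBA/2J (n = 5), 28.2 ± 16.8 in 129S1/SvImJ (n = 9) and 35.4 ± 11.3 in A/J (n = 5). Long-inbred libraries were low too: both female C57BL/6J libraries, at 1.885 and 4.784 CPM, lay within the WSB/EiJ range. The test among the 7 strains gave an adjusted p of 0.149 by edgeR's quasi-likelihood test. The adjusted p of a pair does not allow for the 21 pairs looked at. Of the 21 pairs, 129S1/SvImJ against WSB/EiJ was called, with a log2 fold change of 2.64 (SE 0.71, adjusted p = 0.0446) in a pair where 1.01% of all genes were called. That call was lost, with an adjusted p of 0.050 to 0.109 by edgeR's test, without WSB/EiJ replicate 2, 3, 5 or 6, 129S1/SvImJ replicate 4, 6, 8 or 9, A/J replicate 4 or 5, NOD/ShiLtJ replicate 1 or 5, CAST/EiJ replicate 2 or 5, or DBA/2J replicate 3. With the 38 libraries of at least 3000000 counts, which keep 2 of 6 WSB/EiJ libraries, the log2 fold change was 2.20 (SE 1.01, adjusted p = 0.661 by edgeR's test). This alternative was chosen after seeing the data. The pair was also not called by edgeR's test among male libraries (3.35, adjusted p = 0.0777), within cortex (3.20, adjusted p = 0.387), within hippocampus (2.51, adjusted p = 0.283), or with the smooth muscle mean (2.26, adjusted p = 0.157) or the other labelled factors (2.54, adjusted p = 0.0547) as covariates.

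Sema3g (chr14:31217860-31230352, plus strand, mm10), a secreted semaphorin of arterial EC, was detected in every library, from 52.28 to 261.7 CPM. Its means were 172 ± 50.5 CPM in CAST/EiJ (SD, n = 6), 163 ± 51.3 in NOD/ShiLtJ (n = 6), 162 ± 73.5 in A/J (n = 5), 121 ± 24.1 in C57BL/6J (n = 6), 109 ± 60.2 in WSB/EiJ (n = 6), 97.9 ± 16.8 in DBA/2J (n = 5) and 92.1 ± 26.2 in 129S1/SvImJ (n = 9). The ranges of all 7 strains overlapped. The adjusted p among strains was 0.101 by edgeR's test and 0.0141 by DESeq2, and it fell to 0.0152 in edgeR's test when the 1 female hippocampal WSB/EiJ library at 231.2 CPM was left out. Without A/J replicate 3 it was 0.0496.

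Vegfc (chr8:54077606-54187096, plus strand, mm10), a growth factor that acts on lymphatic and blood vessels, was lowest in WSB/EiJ. Its 6 libraries held 0 CPM in 4, 0.2437 in 1 and 16.56 CPM (27 counts) in 1. Among the other strains the mean ran from 7.87 ± 9.23 CPM in 129S1/SvImJ (SD, n = 9) to 16.9 ± 8.31 in CAST/EiJ (n = 6). Libraries at 0 counts also occurred in 129S1/SvImJ (2), C57BL/6J (1) and DBA/2J (1), and the adjusted p among strains was 0.820 by edgeR's test.

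Gja4 (chr4:127311421-127314039, minus strand, mm10) and Gja5 (chr3:96904693-97077416, plus strand, mm10) encode connexin 37 and connexin 40, the gap junction proteins that couple arterial EC. Gja4 was present in 42 of 43 libraries, from 0.761 to 63.84 CPM. Its strain means lay between 10.8 ± 4.87 CPM in C57BL/6J (SD, n = 6) and 21.9 ± 10.2 in CAST/EiJ (n = 6), with an adjusted p of 0.939 by edgeR's test. The largest values, 63.84 and 49.09 CPM, were those of female hippocampal libraries of WSB/EiJ and DBA/2J. In male libraries the WSB/EiJ mean was 5.99 ± 3.56 CPM (SD, n = 4), the lowest of the 7 strains, against 19.7 ± 23.9 CPM (n = 6) with both sexes.

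Gja5 was at 0 counts in 22 of 43 libraries, among them all 6 of WSB/EiJ and 5 of 6 of C57BL/6J. Where more than 3 counts were found, the level ran from 0.5594 to 8.805 CPM. The mean was 2.70 ± 3.67 CPM in DBA/2J (SD, n = 5), 2.16 ± 1.41 in NOD/ShiLtJ (n = 6) and 2.09 ± 3.19 in 129S1/SvImJ (n = 9). With a floor of 0.603 to 1.84 CPM in the WSB/EiJ libraries, a level like those means would be near the limit of detection in the shallowest of them, and no difference among strains was detectable (adjusted p = 0.820 by edgeR's test). Gja5 shares 165 exonic bases with Gpr89 on the opposite strand, whose counts were 1230% of its own. The strand setting of the counting is not stated, so reads of these genes may not have been told apart.

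Gkn3 (chr6:87383256-87388935, minus strand, mm10), a gastrokine gene used as a marker of arterial EC in mouse brain, was highest in C57BL/6J, at 14.4 ± 13.0 CPM (SD, n = 6). That mean rested on male hippocampal libraries at 27.77 and 33.25 CPM, and the other 4 libraries held 0 to 10.12 CPM. In WSB/EiJ it was at 0 counts in 4 of 6 libraries and reached 2.413 CPM, below every NOD/ShiLtJ (3.141 to 5.43 CPM) and CAST/EiJ library (5.119 to 15.32 CPM). The adjusted p among strains was 0.473 by edgeR's test.

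Among the venous genes, Nr2f2 (chr7:70351944-70366735, minus strand, mm10) had a highest strain mean 1.80 times the lowest, against 1.74 times for Ephb4. Its means were 125.3 ± 57.5 CPM in WSB/EiJ (SD, n = 6), 92.7 ± 22.5 in CAST/EiJ (n = 6), 92.5 ± 17.4 in NOD/ShiLtJ (n = 6), 85.7 ± 20.04 in A/J (n = 5), 77.9 ± 31.2 in C57BL/6J (n = 6), 73.3 ± 19.5 in DBA/2J (n = 5) and 69.6 ± 28.6 in 129S1/SvImJ (n = 9). The WSB/EiJ mean included 1 male hippocampal library at 230.6 CPM. All ranges overlapped, and the adjusted p among strains was 0.704 by edgeR's test. Nr2f2 shares 643 exonic bases with B130024G19Rik on the opposite strand, whose counts were 4.60% of its own.

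Ephb4 (chr5:137350109-137378669, plus strand, mm10) was lowest in WSB/EiJ, at 193 ± 71.0 CPM (SD, n = 6), and highest in NOD/ShiLtJ, at 336 ± 110 CPM (n = 6), and in CAST/EiJ, at 323 ± 55.1 CPM (n = 6). The lowest library, at 54.89 CPM, was a female cortical one of 129S1/SvImJ. WSB/EiJ libraries held 141.7 to 330.7 CPM and NOD/ShiLtJ libraries 238.2 to 472.7 CPM, so that the ranges overlapped through 1 WSB/EiJ library, the one at 330.7 CPM. The unadjusted p of 0.0298 became 0.364 after adjustment in edgeR's test.

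The log2 ratio of ephrin-B2 to EphB4 transcripts (from CPM, not per length) was -1.27 ± 0.81 (SD, n = 43). It was -0.80 ± 0.22 in CAST/EiJ (n = 6), where both genes were high, and -1.66 ± 0.54 in NOD/ShiLtJ (n = 6), where the receptor was high and the ligand was not. In WSB/EiJ, where the mean of Ephb4 was the lowest of the strains, the ratio was near that of CAST/EiJ, at -0.84 ± 0.68 (n = 6). In 129S1/SvImJ the ratio ran from -4.49 to 0.56 over 9 libraries.

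Lcn2 (chr2:32384633-32388252, minus strand, mm10), which encodes the iron-siderophore binding protein lipocalin 2, was highest in CAST/EiJ. Its 6 libraries held 0, 2.493, 5.636, 7.038, 21.74 and 23.24 CPM, the highest of them in the female libraries. The mean was 10.02 ± 9.97 CPM (SD, n = 6), and 3.79 ± 3.16 CPM in the 4 male libraries, below the 3.98 ± 4.90 CPM of the 3 male 129S1/SvImJ libraries. In the other strains 9.452, 11.57 and 9.437 CPM were reached in single libraries of 129S1/SvImJ, C57BL/6J and WSB/EiJ, and no DBA/2J library held more than 1 count. The adjusted p among strains was 0.596 by edgeR's test. Lcn2 is also made by neutrophils. Of 8 neutrophil markers, 4 passed 3 counts in at least 1 library, and Ly6g and Mmp8 were at 0 counts in every library. The summed level of the list was 0 to 3.97 CPM in CAST/EiJ and 0 to 7.07 CPM over all libraries. Spearman's rho of Lcn2 with that sum was 0.105 over all libraries, 0.576 in female and -0.111 in male libraries. The part of neutrophils in the level of Lcn2 was not tested.

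Further genes of arterial, venous and capillary EC were counted in the same test. Among strains, 1 of 14 further arterial genes was called, Dll4, the Notch ligand of arterial EC, against 2.68% of all genes. Its mean ran from 76.7 CPM in DBA/2J to 219 CPM in WSB/EiJ (adjusted p = 1.3e-04 by edgeR's quasi-likelihood test). Of 14 further venous genes, 3 were called: Vwf (4.0e-07), the carrier protein von Willebrand factor, Slc38a5 (0.0284), a transporter of neutral amino acids, and Tmem252 (0.0418). Of 10 capillary genes, 5 were called, among them the transporters Slc16a1 and Slc7a5 and the chemokine Cxcl12. The paper describes Vwf in arterial as well as venous EC, with the strongest staining in veins, and Slc16a1 in venous as well as capillary EC. Neither gene is therefore particular to its list. In the same test 7 of 20 general endothelial, 5 of 10 pericyte, 2 of 10 smooth muscle and 2 of 10 astrocyte markers were called, and their part in the strain differences of the 10 genes was not tested. DESeq2 called Dll4 and Stmn2 of the further arterial genes and Vwf and Tmem252 of the further venous genes, but not Slc38a5.

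The comparison of brain regions asked whether EC of hippocampus and cortex differed in these genes. None of the 10 was called by edgeR's quasi-likelihood test, where 0.0755% of all genes were, and DESeq2 called none either. At an unadjusted p under 0.05, 1 of the 10, Gja4, stood out, against 5.60% of all genes. Gja4 held 0.761 to 30.43 CPM in cortex with a median of 10.88, and 0 to 63.84 CPM in hippocampus with a median of 15.96. The log2 fold change of hippocampus over cortex was 0.77 (SE 0.38, adjusted p = 0.669 by edgeR's test), and the groups overlapped over most of their range.

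Gkn3 had the largest fitted difference over all libraries, 1.14 (SE 0.69, adjusted p = 0.669 by edgeR's test). It was 1.60 (SE 0.81) in male and 0.26 (SE 1.31) in female libraries, where Gja4 (0.95), Bmx (0.87) and Vegfc (0.83) were larger, and 0.52 (SE 0.77) with the smooth muscle mean as a covariate. It held 0 to 14.32 CPM in cortex with a median of 3.14, and 0 to 33.25 CPM in hippocampus with a median of 7.13. Among 19 pairs of libraries whose titles differ only in the region, Gkn3 was higher in hippocampus in 13 and lower in 4, and Gja4 was higher in 13 and lower in 6. Bmx was higher in hippocampus in 12 of 19 pairs, and Efnb2 and Sema3g were higher in 10. Nr2f2 was higher in 8 and lower in 11, Vegfc higher in 8 and lower in 10, Ephb4 higher in 9 and lower in 10, Lcn2 higher in 5 and lower in 8, and Gja5 higher in 7 and lower in 7. The log2 fold changes of the other 8 genes lay between -0.21 and 0.40. None of 14 further arterial, 14 further venous and 10 capillary genes was called by edgeR's test, with 0, 1 and 3 of them at an unadjusted p under 0.05. DESeq2 called 0 of each of these lists.

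Male libraries titled low were compared with those titled high (13 against 14). None of the 10 genes was called by edgeR's test or by DESeq2, where edgeR called 1.06% of 27529 genes, and 1 had an unadjusted p under 0.05 (8.11% of all genes). That was Sema3g, with 73.8 to 140.1 CPM and a median of 92.8 in libraries titled low and 57.07 to 217.8 CPM with a median of 136.3 in those titled high. Its log2 fold change was -0.46 (SE 0.18, adjusted p = 0.345 by edgeR's test), and it was lower in the low library in 10 of 13 pairs of 1 strain and region.

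The fitted differences between tags were below 0 for all 10 genes, from -0.13 for Nr2f2 to -1.55 for Lcn2, with a median of -0.43. Over all 27529 genes the median was -0.045. The sign was not stable for 3 of the 10: within cortex the value was 0.11 for Nr2f2, 0.10 for Gja4 and 0.32 for Gja5, and Nr2f2 was also above 0 in libraries of at least 3000000 counts (0.057) and without WSB/EiJ (0.017). Vegfc had a log2 fold change of -0.98 (SE 0.62), Gja5 of -0.76 (SE 1.44), Gja4 of -0.69 (SE 0.50) and Ephb4 of -0.28 (SE 0.15). Ephb4 and Vegfc were each lower in the low library in 10 of 13 pairs, Efnb2 and Lcn2 in 9, Gja4 in 8, Gkn3 in 7 and Gja5 in 6. Bmx and Nr2f2 were lower in 6 and higher in 7.

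Other lists moved with the tag. Of 20 endothelial markers, 18 had a fitted difference below 0, with a median of -0.38, 4 were called lower and 1 higher. Of 10 astrocyte markers, all 10 lay above 0 and 3 were called higher, and the summed level of the list was 3160 to 19700 CPM in libraries titled low and 1480 to 7270 CPM in those titled high. Neuronal markers summed to 171 to 521 CPM against 34.5 to 449 CPM. The part of other cell types in the lower values of the 10 genes was not tested. Tm4sf1 of the further arterial genes and Ctsc of the further venous genes were called lower, each 1 of 14.

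**Figure D3:**
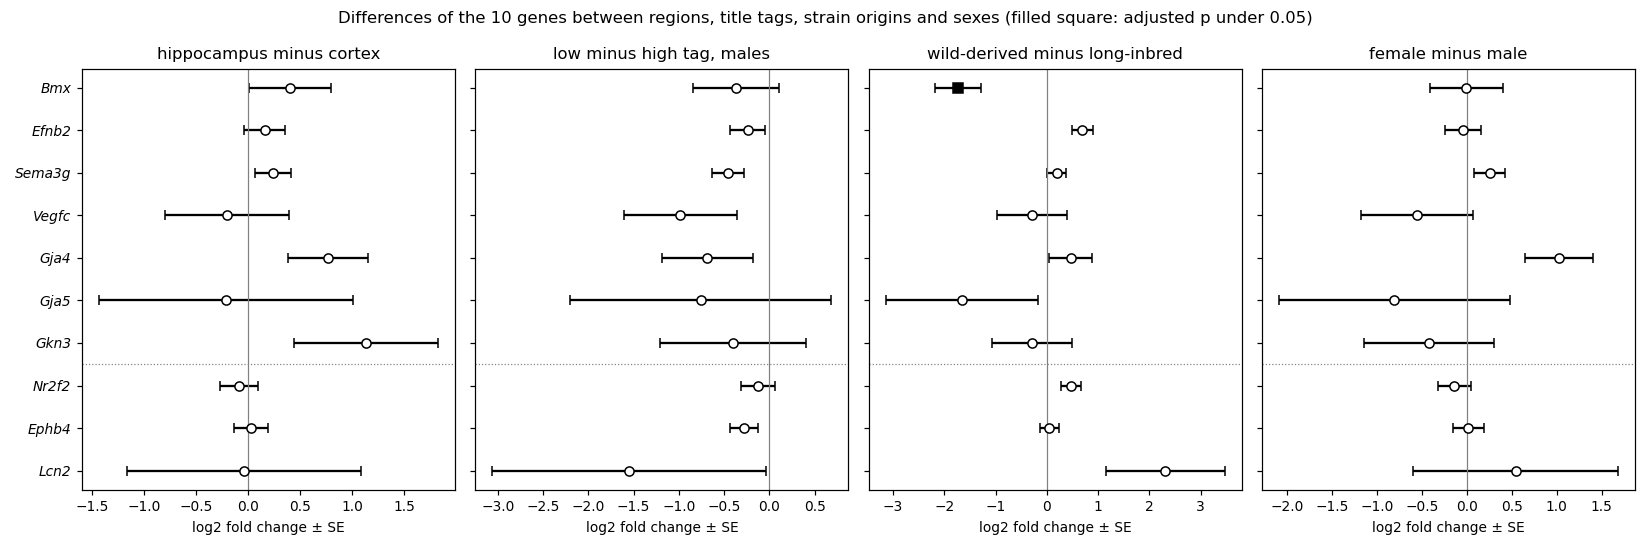
Fitted log2 fold changes of the 10 genes with their standard errors for hippocampus against cortex, libraries titled low against high in males, wild-derived against long-inbred strains, and female against male. The filled square is the only call, Bmx at -1.74 in wild-derived strains, and all 10 points of the tag comparison over both regions lie below 0.

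Wild-derived strains were compared with long-inbred strains (12 against 31 libraries). Bmx was the only one of the 10 genes called by edgeR's test, where 0.749% of all genes were called. Its 12 wild-derived libraries held 0 to 22.77 CPM with a median of 5.19, and the 31 long-inbred libraries held 1.885 to 55.14 CPM with a median of 26.95. The log2 fold change was -1.74 (SE 0.45, adjusted p = 0.0366 by edgeR's quasi-likelihood test). All genes tested had a median of -0.38 in this comparison, so Bmx also lay below that shift.

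The strain is the unit of this comparison, and 2 wild-derived strains stood against 5. With counts summed per strain, the log2 fold change of Bmx was -1.41 (SE 0.55, adjusted p = 0.833 by edgeR's test). Without WSB/EiJ it was -1.27 (adjusted p = 0.535), with the 38 libraries of at least 3000000 counts it was -1.43 (adjusted p = 0.241), and the call was also lost without 129S1/SvImJ (0.0861), A/J (0.104), DBA/2J (0.0512) or NOD/ShiLtJ (0.0552). Among male libraries it was -2.43 (SE 0.53, adjusted p = 0.00911), and within cortex (0.609) and hippocampus (0.435) it was not called. Reads were aligned to mm10, which is built on C57BL/6J, and the effect of sequence differences of the wild-derived strains on these counts was not tested.

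Efnb2 was higher in wild-derived libraries by 0.69 on the log2 scale (SE 0.20, adjusted p = 0.0825 by edgeR's test), with 53.6 to 225.5 CPM and a median of 158.5 against 17.55 to 178.6 CPM and a median of 89.67. Without WSB/EiJ, which left CAST/EiJ alone, the value was 0.99 (SE 0.23, adjusted p = 0.0108). Over the 7 fits with 1 strain left out it ran from 0.27 to 0.99. The adjusted p was 0.0108 to 0.802 by edgeR's test, and Efnb2 was called in 1 of these fits. The WSB/EiJ mean of Efnb2 (112 CPM) lay below that of A/J (119 CPM). The unadjusted p was under 0.05 in 4 of the 10 genes (7.01% of all genes): Bmx, Efnb2, Nr2f2 at 0.47 (SE 0.19, adjusted p = 0.481) and Lcn2 at 2.31 (SE 1.16, adjusted p = 0.704). In the same comparison Dll4 of the further arterial genes, Vwf of the further venous genes and 3 of 10 capillary genes were called higher by edgeR's test. DESeq2 called 3 of 14 further arterial genes, Dll4 higher and Jag2 and Mgp lower. Of 20 endothelial markers, edgeR's test called 1, Ly6c1, which was lower, at -2.05 (SE 0.43, adjusted p = 0.00386). The fitted differences of 11 of the 20 lay above 0, and the median of the list was 0.003.

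Between the sexes none of the 10 genes was called by edgeR's test or by DESeq2, where edgeR called 2.85% of all genes, and 1 had an unadjusted p under 0.05 (13.1% of all genes). That was Gja4, with 0.761 to 63.84 CPM and a median of 19.88 in 16 female libraries and 0 to 38.39 CPM with a median of 10.25 in 27 male libraries. The log2 fold change of female over male was 1.02 (SE 0.38, adjusted p = 0.161 by edgeR's test). The fitted differences of the other 9 genes lay between -0.81 (Gja5, SE 1.29) and 0.54 (Lcn2, SE 1.14). With the rRNA-like share as a covariate, Efnb2 and Sema3g were called, and the value of Efnb2 turned from -0.04 to 1.44 (SE 0.31, adjusted p = 0.0144 by edgeR's test).

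Levels of the 10 genes were also set against each other over the 43 libraries, as log2(CPM + 1), in 45 pairs. Of 21 pairs of arterial genes, 20 had a positive Spearman's rho, with a median of 0.289. Of 21 pairs of an arterial and a venous gene, 18 were positive, with a median of 0.258. The 3 venous pairs had a median of 0.105. The libraries share strain, sex and depth, and some may share a mouse. The share of positive values among pairs of other genes, or of other endothelial genes, was not computed. These counts therefore cannot be read as particular to the 10.

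**Figure D4:**
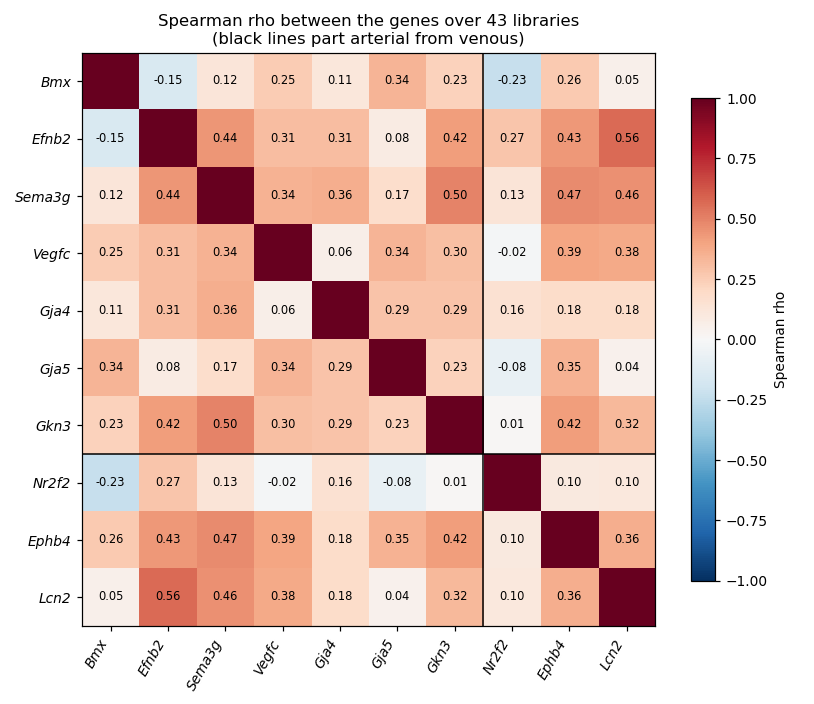
Spearman's rho of each pair of the 10 genes over the 43 libraries, with black lines between arterial and venous genes. The highest value is 0.564 (Efnb2 and Lcn2), and the medians within arterial genes (0.289) and between arterial and venous genes (0.258) lie close together.

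Efnb2 and Lcn2 had the highest rho, 0.564. Lcn2 was at or under 3 counts in 29 of the 43 libraries, whose depth differed widely, so no test is given for this pair. Sema3g and Gkn3 followed, with rho = 0.499 (permutation p = 7.5e-04, adjusted over 45 pairs to 0.017) and r = 0.509 (permutation p = 6.9e-04, adjusted to 0.010), 0.444 without the 2 farthest libraries. Sema3g also went with Ephb4, with rho = 0.470 (permutation p = 0.0016, adjusted to 0.024), r = 0.429 (permutation p = 0.0037, adjusted to 0.022) and 0.497 without the 2 farthest libraries. Over the 45 pairs, 3 arterial pairs and 5 pairs of an arterial and a venous gene passed an adjusted p of 0.05 by both measures, and Lcn2 was in 2 of these 5. The share of pairs of other genes that would pass was not computed either.

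The levels were also set against the summed levels of marker lists of other cells, in 50 pairs. All 10 genes had a negative rho with the 6 neuronal markers, from -0.567 to -0.122, and 6 of these passed an adjusted p of 0.05 by both measures. The share of all genes, or of other endothelial genes, with such values was not computed. The count therefore cannot be read as particular to the 10. For Sema3g rho was -0.567 (permutation p = 8.0e-05, adjusted to 0.0040) and r was -0.508 (permutation p = 4.3e-04, adjusted to 0.011), with r = -0.533 without the 2 farthest libraries, -0.465 in female and -0.547 in male libraries. Of 10 genes, 9 also had a negative rho with pericyte (-0.456 to 0.202) and 9 with astrocyte markers (-0.459 to 0.0556), and 1 pair passed in each list, Vegfc with pericyte and Gja4 with astrocyte markers. For Vegfc with pericyte markers rho was -0.616 in female and -0.5 in male libraries. For Gja4 with astrocyte markers it was -0.0206 in female and -0.379 in male libraries. No pair passed with smooth muscle (-0.174 to 0.171) or neutrophil markers (-0.0954 to 0.276), so 8 of the 50 pairs passed in all.

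The genes whose levels went most closely with each of the 10 were sought among 10649 genes with a mean of at least 5 CPM. For Bmx this was Ly6c1, a surface antigen of EC (rho = 0.744 over 43 libraries), and then Odf3b (0.634) and Ace, angiotensin-converting enzyme (0.626). For Ephb4 it was Cdh5, VE-cadherin of the endothelial junctions (0.738), with Nxn (0.734). For Sema3g these were Klhl25 (0.680), the tight junction gene Ocln (0.672) and Tapbp (0.671).

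The other genes stood nearest to genes outside the arterial and venous lists. Efnb2 went with Mcl1 (0.661), Pcbp2 (0.660) and Acly (0.650), Vegfc with Ppp6r3 (0.681), Atg7 (0.636) and Lrrc32 (0.623), and Gja4 with Pdia3 (0.716), Ppp1r8 (0.686) and Rrp9 (0.664). Gkn3 went with Klhl13 (0.635), Klhl25 (0.632) and Jup (0.630), and Gja5 with Tango2 (0.610), Zfp518a (0.602) and Rnu11 (0.596). Lcn2 went with Pisd (0.686), Nt5dc2 (0.598) and Slc12a4 (0.594), and Nr2f2 with 4931414P19Rik (0.591), Cad (0.531) and Pxk (0.523). These are descriptions over 43 libraries of differing depth, with no test.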

How the data were processed

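EC of 7 mouse strains were sorted and sequenced in 43 libraries. HISAT2 (2.1.0) was used by the authors for alignment to mm10. They counted reads per gene with featureCounts of Subread (1.4.4) and deposited raw counts with no normalization. The strand setting of the counting is not given in the sources used here. Reads were not analysed here.

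Strain, sex, region, age and title tag came from the labels. Genes that reached 0.5 CPM in any library were scaled by TMM and tested two-sided with edgeR (4.0.16, R 4.3.3) quasi-likelihood tests, with Benjamini-Hochberg adjustment at 0.05 over all genes tested and no covariates. Pairs of strains were contrasts of the strain fit, each adjusted on its own over all genes and not over the pairs. Deviances were bias-adjusted and the dispersion was trended, a setting chosen in earlier work on these counts. The authors' methods name DESeq2, and DESeq2 (1.42.0) was an alternative, as were other scaling, filters, covariates and subsets of libraries. The 43 libraries had 1626534 to 49372356 counts. The floor of 3 counts covers counting error only.

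Correlations used log2(CPM + 1) and 100000 permutations, two-sided (Python 3.11.15). Gene positions came from GENCODE M21 (54495 of 54532 identifiers matched) and promoters from RefSeq (GRCm38.p6). Programs were tested on simulated data: of 200 genes changed 4-fold, 43% were called among strains, 83% between regions and 77% between tags in males, and false calls made up 30.6%, 10.8% and 13.5% of calls. The changed genes were drawn from those above 10 CPM over the pooled libraries, and among strains only a single strain was changed. These shares were not measured for genes at lower levels, such as Gkn3, Lcn2 and Gja5 (means of 6.00, 2.54 and 1.57 CPM). The members, the lists and the alternatives were chosen with earlier results of these data known. All 10 members are named; further genes are given by counts, with examples of those called, and some results on further genes are not reported here.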

Additional observations from a re-analysis of the deposited data

Results flagged for a closer look

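In 69 groups of 1 gene in 1 strain, the highest or lowest library was set against the others by Dixon's test, and 13 libraries stood apart. Chance flags about 1 in 20 groups where values are normally distributed. CPM of genes with many libraries at 0 are not, so that rate does not hold here. The 13 of 69 cannot be read as an excess. No explanation was tested. Among arterial genes, Bmx reached 55.14 CPM in the A/J male cortex high library, Sema3g 231.2 CPM in the WSB/EiJ female hippocampus high library, and Gja4 49.09 CPM in the DBA/2J female hippocampus high library. Vegfc fell to 0.834 CPM (3 counts) in the CAST/EiJ male cortex low library and reached 16.56 CPM (27 counts) in the WSB/EiJ male hippocampus high library. Gja5 reached 6.111 CPM (34 counts) in the C57BL/6J male hippocampus high library, where the other 5 were at 0. Gkn3 reached 2.413 CPM (12 counts) in the WSB/EiJ male cortex low library.

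Among venous genes, Ephb4 reached 330.7 CPM in the WSB/EiJ female cortex high library. Lcn2 stood apart in 5 strains: at 9.452 CPM in the 129S1/SvImJ male hippocampus high library, at 2.634 CPM in the A/J male cortex high library, at 11.57 CPM in the C57BL/6J male cortex high library, at 9.437 CPM (18 counts) in the WSB/EiJ male hippocampus low library, and at 0.0179 CPM (1 count) in the DBA/2J female hippocampus high library, which is under the floor of 3 counts.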

How the results depend on the processing

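Of the 10 genes, 1 was called among strains. The number was 0 with DESeq2's size factors, the rRNA-like share or the smooth muscle mean as a covariate, cortex only, hippocampus only and male libraries only. It was 2 with the other labelled factors as covariates and in libraries titled high, 3 with DESeq2 and 5 with edgeR's default deviances, which called 13525 of all genes. With single libraries left out it was 0 to 2. For wild-derived strains, 1 was called: 2 with default deviances, 0 in cortex only, hippocampus only, libraries of at least 3000000 counts (chosen after seeing the data) or counts summed per strain, and 0 to 1 with each strain left out. Between the sexes 0 were called, against 1 with default deviances and 2 with the rRNA-like share as a covariate, where the log2 fold change of Efnb2 turned from -0.04 to 1.44 (SE 0.31). The rRNA-like share does not overlap between the sexes. In no alternative was any of the 10 called between regions or between tags, but the tag difference of Nr2f2, Gja4 and Gja5 turned above 0 within cortex. The cause of these changes was not tested.

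Over all genes, 184 to 13525 were called among strains (781 as reported), 7 to 8023 between regions (22), 5 to 8327 between tags (293), 7 to 6712 by origin (218) and 67 to 10473 between sexes (830). The highest counts came from default deviances and the lowest from subsets of libraries, counts summed per strain or, between sexes, the rRNA-like share. DESeq2 called 1314, 55, 640, 395 and 1000. Left-out strains gave 124 to 407 calls between tags and 11 to 28 between regions. Mean levels of the 10 genes over all libraries moved by less than 1 SD without TMM scaling or in male libraries, but in males the mean of Gja4 in WSB/EiJ went from 19.7 to 5.99 CPM and that of Lcn2 in CAST/EiJ from 10.02 to 3.79 CPM. No label names the animal. With libraries whose titles differ only in region as blocks, 63 genes and 0 of the 10 were called. Tags with strain and region as blocks are the same model as their covariates (560 genes). Depth limited Gja5 and Lcn2, which were at or under 3 counts in 24 and 29 of 43 libraries.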
